A study of Mus musculus with 6 samples.

Results

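The immunoglobulin genes described here are 7 of the 34745 genes in the deposited table, taken as the records named Ighm, Ighg1, Ighg2b, Ighg2c, Igha, Igkc and Jchain. They were chosen because their counts differed between the genotypes in these same libraries, so that difference is described below without a test. RNA came from 12-week-old C57BL/6 mice, taken 48 h after partial hepatectomy (PHx), an operation that resects liver tissue and sets off regrowth. Liver is the labelled tissue, hepatocyte is the labelled cell type, and the series title speaks of primary hepatocytes, so whether whole liver or isolated hepatocytes were sequenced is not settled by the labels. This bears on every value of a gene that hepatocytes are not known to express. The mice were Sox9HKO (HKO, 3 libraries) or Sox9f/f (WT, 3 libraries), and both groups had the operation. Sox9 is a transcription factor gene, known from bile ducts and from progenitor-like hepatocytes. What recombined the floxed allele is not in the labels. They do not give the number of mice behind the libraries either, and p-values therefore cover only the spread between these libraries.

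Immunoglobulins are the antibodies of B cells and of plasma cells, the secreting end stage of the B cell lineage. A heavy chain and a light chain gene are each assembled by joining a variable (V) segment to J (and, in heavy chains, D) segments upstream of a constant gene. The heavy constant gene sets the class: mu (Ighm) in IgM, gamma (Ighg1, Ighg2b, Ighg2c) in IgG and alpha (Igha) in IgA. Naive B cells make mu and delta, and class switching later places a gamma or alpha gene behind the same V segment. Igkc is the kappa light chain constant gene, and Jchain encodes the joining chain that links IgM and IgA into polymers. Hepatocytes are not a known source of these chains, and the liver holds B cells and plasma cells beside many other cell types.

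On GRCm38 the heavy chain constant genes lie on the minus strand of chromosome 12: Ighm at chr12:113418558-113422730, Ighg1 at chr12:113325240-113330523, Ighg2b at chr12:113302965-113307933, Ighg2c at chr12:113285325-113288932 and Igha at chr12:113254830-113260236. Igkc lies at chr6:70726435-70726966 (plus strand) and Jchain at chr5:88519809-88527891 (minus strand). The GENCODE M21 annotation lists the first 6 as immunoglobulin constant genes and Jchain as protein coding, and no other annotated exon overlaps any of the 7.

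The gamma genes are close relatives, so how far their reads can be told apart bears on their values. The first 90 bases of the first constant exon are shown for the 3 gamma members from GENCODE M21 transcripts, 5′ to 3′ on the transcribed strand, with capitals where the 3 differ (chr12:113307844-113307933 for Ighg2b, chr12:113288843-113288932 for Ighg2c and chr12:113330434-113330523 for Ighg1).
Ighg2b: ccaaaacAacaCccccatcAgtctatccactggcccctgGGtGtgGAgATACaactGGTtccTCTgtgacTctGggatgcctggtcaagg
Ighg2c: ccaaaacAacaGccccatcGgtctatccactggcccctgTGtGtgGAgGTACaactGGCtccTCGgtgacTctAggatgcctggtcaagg
Ighg1: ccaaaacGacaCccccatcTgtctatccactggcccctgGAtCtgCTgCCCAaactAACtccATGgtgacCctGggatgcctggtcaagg
Over this whole exon of 291 bases, Ighg2b and Ighg2c differ at 36 positions (87.6% identity), Ighg2b and Ighg1 at 34 (88.3%) and Ighg2c and Ighg1 at 35 (88.0%). Of all 50-base windows of the transcripts, 5.49% of those of Ighg2c, 4.15% of those of Ighg2b and 0.393% of those of Ighg1 also occur in another gene, and none of those of Ighm, Igha, Igkc or Jchain do. At 100 bases no window of any of the 7 is shared. The read length and the treatment of reads matching several genes are not given in the sources used here. The split between Ighg2b and Ighg2c is thus the least certain.

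A set of 4 V segments carries the comparison of libraries further on, and the last 60 bases of each reference (germline) segment are shown in the same way, with capitals for the codon of the conserved cysteine before the third hypervariable loop (chr6:70672318-70672377 and chr6:68050397-68050456, plus strand, for the kappa segments, and chr12:114391712-114391771 and chr12:114788372-114788431, minus strand, for the heavy segments).
Igkv3-4: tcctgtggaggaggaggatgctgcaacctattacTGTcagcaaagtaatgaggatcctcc
Igkv9-120: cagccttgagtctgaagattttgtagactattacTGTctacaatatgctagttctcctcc
Ighv6-3: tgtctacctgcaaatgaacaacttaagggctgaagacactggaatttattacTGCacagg
Ighv1-26: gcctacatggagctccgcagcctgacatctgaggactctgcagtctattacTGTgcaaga
These belong to large families. Other V genes share 34.1% of the 50-base windows of Igkv3-4, 25.3% of those of Igkv9-120, 14% of those of Ighv6-3 and 49.0% of those of Ighv1-26. The names below therefore stand for the authors' assignment of reads within a family.

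The HKO libraries held 18136185 to 21168233 counts and the WT libraries 16659778 to 18514962. The first principal component of log-CPM (57.7% of the variance) separated HKO from WT, and the second (18.8%) separated HKO 2 from HKO 1 and HKO 3. Mitochondrial genes (13) held 25.9% of counts in HKO 2, against 12.1% to 16.3% in the other 5 libraries. Sox9 averaged 5.14 ± 1.06 CPM in HKO, against 10.6 ± 3.40 CPM in WT (SD, n = 3 each), and its log2 fold change was -1.05 (SE 0.27, adjusted p = 0.0284). That call was lost without HKO 2, HKO 3, WT 2 or WT 3, with an adjusted p of up to 0.0975. The hepatocyte markers summed to 77408 to 78247 CPM in HKO and 92902 to 115915 CPM in WT.

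All 7 immunoglobulin genes were higher in HKO, with no overlap between the groups. Summed, they had 581, 785 and 556 counts in HKO 1, 2 and 3, against 36, 55 and 45 counts in WT 1, 2 and 3. In CPM (counts relative to library size, the sizes adjusted by TMM factors), this was 31.2, 45.6 and 25.3 in HKO and 2.0, 3.09 and 2.74 in WT. The lowest HKO library thus stood well above the highest WT library. The mean was 34.0 ± 10.4 CPM in HKO, against 2.61 ± 0.557 CPM in WT (SD, n = 3 each), a ratio of 13.0, and 10.8 without HKO 2. In bulk RNA, fewer cells of a type and less RNA per cell cannot be told apart in such values.

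All 7 passed the filter on low counts, but only Igha would have passed on the WT libraries alone. All 7 were past an adjusted p of 0.05 in the higher direction in the fit across all genes, where 12.1% of the 12556 tested genes were, and all 7 had every HKO library above every WT library, as did 22.6% of tested genes. Since the members were chosen on this contrast, nothing is read from either count.

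**Figure D1:**
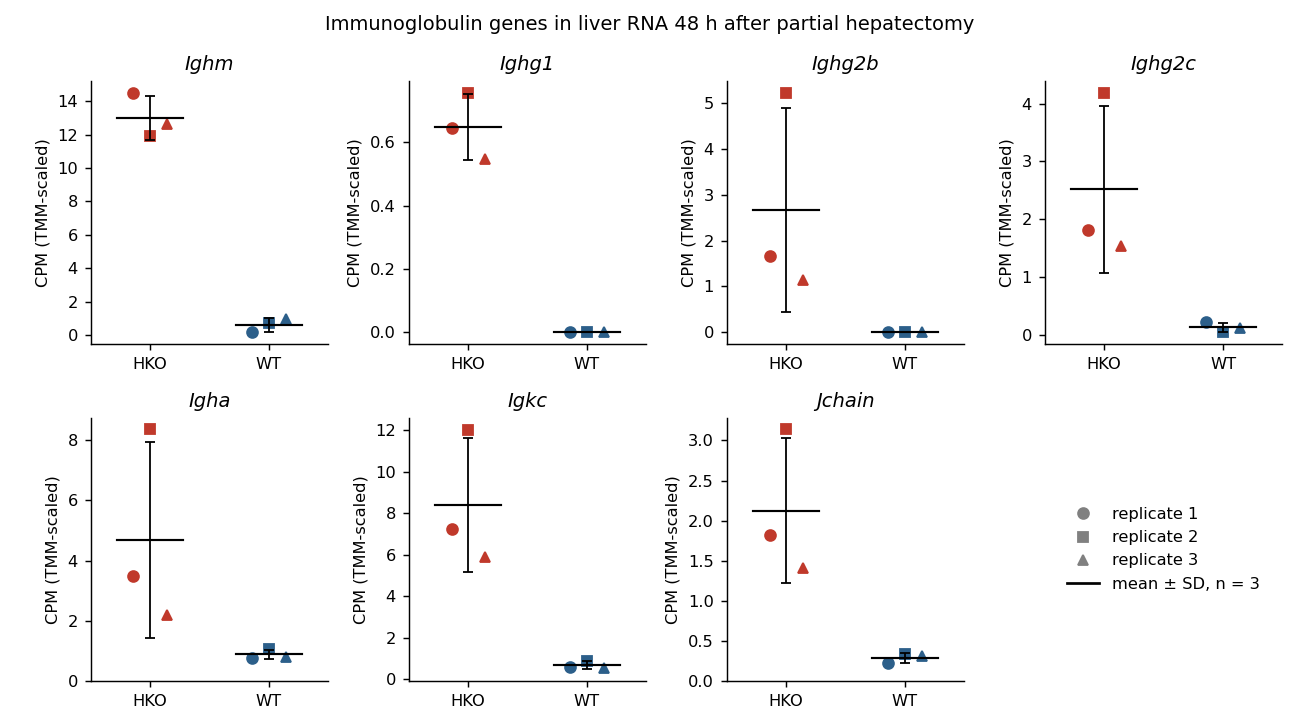
Level of each of the 7 genes in each library (vertical axis, TMM-scaled CPM from 0) in HKO (left) and WT (right), with the mean and SD over 3 libraries. Symbols mark the replicate number. HKO 2 (squares) is the highest HKO library for every gene except Ighm, where it is the lowest at 11.9 CPM.

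Among the heavy chains, mu was the most abundant per length in HKO. Ighm had 270, 205 and 277 counts in HKO, against 3, 13 and 16 counts in WT, which is 14.5, 11.9 and 12.6 CPM in HKO and 0.167, 0.730 and 0.975 CPM in WT. The HKO libraries lay close together, while WT 1 held far less than the other WT libraries. The mean of 13.0 ± 1.33 CPM in HKO was 20.8 times the 0.624 ± 0.415 CPM in WT (SD, n = 3 each), and leaving out single libraries gave 15.3 to 29.0 times.

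The gamma genes were at or near 0 in WT. Ighg2b had 31, 90 and 25 counts in HKO and 0, 0 and 0 in WT. Its HKO levels of 1.66, 5.23 and 1.14 CPM (mean 2.68 ± 2.23, SD, n = 3) were at least 46.6-fold higher against the limit of 3 counts over the WT group, and at least 24.4-fold higher without HKO 2. That library alone held more of its counts than the other HKO libraries together.
Ighg2c, the other IgG2 gene here, had 34, 72 and 34 counts in HKO and 4, 1 and 2 counts in WT. Its mean of 2.52 ± 1.45 CPM in HKO was 18.9 times the 0.133 ± 0.0835 CPM in WT (SD, n = 3 each), and 12.6 times without HKO 2. Ighg1 had 12, 13 and 12 counts in HKO and 0, 0 and 0 in WT. It was the lowest but most even of the gamma members, at 0.649 ± 0.105 CPM in HKO (SD, n = 3), at least 11.3-fold higher against the same limit. That bound fell to 7.40-fold without WT 1, since it rests on the depth of the WT group.

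The alpha chain gene had the smallest ratio of the 7. Igha had 65, 144 and 48 counts in HKO and 14, 19 and 13 counts in WT. This was 3.49, 8.37 and 2.19 CPM in HKO and 0.777, 1.07 and 0.793 CPM in WT. HKO 3 stood nearest to the WT libraries and HKO 2 farthest from them. The mean of 4.68 ± 3.26 CPM in HKO was 5.33 times the 0.879 ± 0.163 CPM in WT (SD, n = 3 each), and 3.23 times without HKO 2.

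The light chain and the joining chain had the same order of HKO libraries. Igkc had 135, 207 and 129 counts in HKO and 11, 16 and 9 counts in WT, with means of 8.38 ± 3.23 CPM in HKO against 0.686 ± 0.186 CPM in WT (SD, n = 3 each), a ratio of 12.2. Jchain had 34, 54 and 31 counts in HKO and 4, 6 and 5 counts in WT, with means of 2.12 ± 0.901 CPM in HKO, against 0.288 ± 0.0592 CPM in WT, a ratio of 7.38. Without HKO 2 the ratios were 9.57 for Igkc and 5.62 for Jchain. Across the 3 HKO libraries these were the most alike of the 21 member pairs, with a root mean square difference of 0.0222 between their centred log2(CPM + 0.5) values, and Ighm and Ighg2b the least alike, at 0.844.

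Levels of different genes can be compared only per length, in the deposited FPKM. The order then depends on the lengths behind the FPKM, which ran from 532 bases for Igkc to 3653 bases for Jchain. Ighg2b and Ighg2c had 146 and 140 counts in HKO but implied lengths of 2993 and 1930 bases, so their FPKM order follows these lengths. In HKO the order was Igkc (15.5 ± 5.03 FPKM), Ighm (5.88 ± 0.843), Igha (1.52 ± 0.969), Ighg2c (1.28 ± 0.654), Ighg2b (0.867 ± 0.671), Jchain (0.573 ± 0.208) and Ighg1 (0.222 ± 0.0246; SD, n = 3). Neighbours among Igha, Ighg2c, Ighg2b and Jchain did not differ beyond these spreads. In WT the order was Igkc (1.28 ± 0.311 FPKM), Igha (0.292 ± 0.0438), Ighm (0.276 ± 0.180), Jchain (0.0784 ± 0.0126) and Ighg2c (0.0706 ± 0.0474), with Ighg1 and Ighg2b listed at 0. There, Igha and Ighm stood within their spread of each other, as did Jchain and Ighg2c.

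HKO 2 carried a different mix of classes from HKO 1 and HKO 3. Its level over the mean of the other HKO libraries was 3.73 for Ighg2b, 2.95 for Igha, 2.48 for Ighg2c, 1.94 for Jchain, 1.83 for Igkc, 1.27 for Ighg1 and 0.879 for Ighm. Of the heavy chain constant counts, Ighm took 65.4% (exact Clopper-Pearson 95% interval 60.6% to 70.0%) in HKO 1, 39.0% (34.9% to 43.4%) in HKO 2 and 69.2% (64.5% to 73.7%) in HKO 3. The interval of HKO 2 lay below both others. The gamma genes, Ighg3 included, took 18.9%, 33.5% and 18.8% in HKO 1, 2 and 3, and Igha took 15.7%, 27.4% and 12.0%. Intervals and limits here cover counting error only.

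The WT mix rested on 23, 38 and 32 heavy chain counts. Igha took 60.9% (38.5% to 80.3%), 50% (33.4% to 66.6%) and 40.6% (23.7% to 59.4%) of them in WT 1, 2 and 3, above its 12.0% to 27.4% in the HKO libraries. The interval of WT 3 overlapped that of HKO 2 (23.7% to 31.5%). Ighm took 13.0%, 34.2% and 50% in WT. Pooled, Ighm made up 56.2% of the heavy chain counts in HKO and 34.4% in WT, and Igha 19.2% in HKO and 49.5% in WT. These are shares of counts from genes of unlike length. As shares of summed FPKM, Ighm made up 59.6% in HKO and 36.7% in WT, and Igha 15.4% in HKO and 38.8% in WT. Per length, Igha and Ighm were thus close to each other in pooled WT, but not in each WT library. Igha and Ighm made up 51.0% and 14.8% of summed FPKM in WT 1, 36.5% and 33.8% in WT 2, and 33.1% and 55.0% in WT 3. The delta gene Ighd, which naive B cells express with mu, had 0 of 1338 counts in HKO, which allows a share of up to 0.224%, and 2, 0 and 1 counts in WT. The remaining gamma gene, Ighg3, had 1, 1 and 4 counts in HKO and 0, 5 and 0 in WT, and the epsilon gene Ighe had none in any library.

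**Figure D2:**
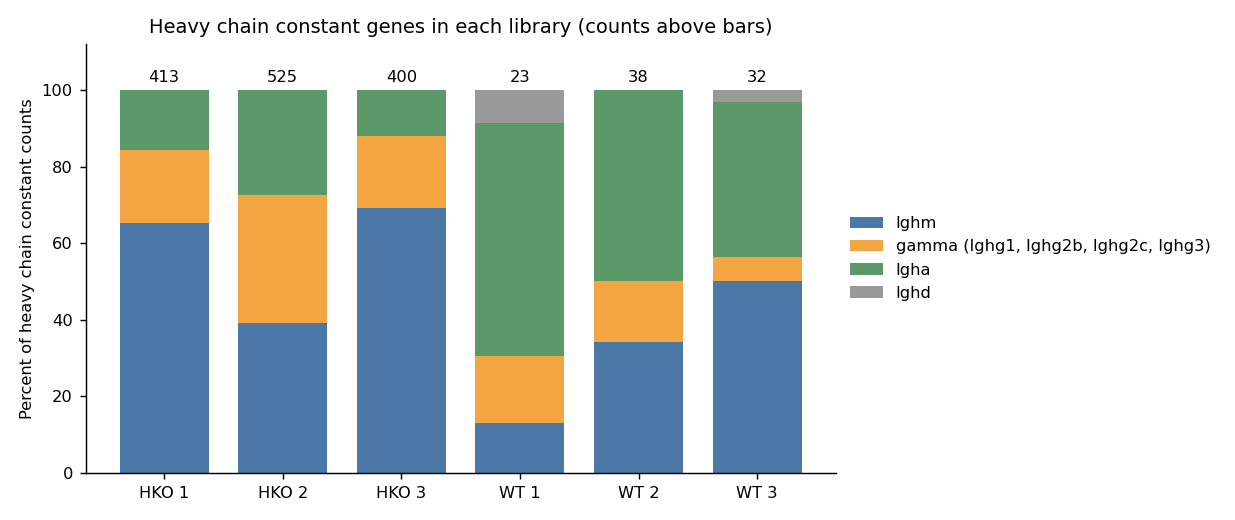
Share of heavy chain constant counts (vertical axis, percent) taken by each class in each library, HKO left and WT right, with the number of counts above each bar. Ighm falls to 39.0% in HKO 2, against 65.4% and 69.2% in the other HKO libraries, and the WT bars rest on 23 to 38 counts.

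Lambda constant genes were a small part of the light chain counts in every HKO library. They took 6.25% (2.90% to 11.5%), 5.48% (2.86% to 9.38%) and 7.19% (3.50% to 12.8%) of them in HKO 1, 2 and 3. WT had 0, 2 and 2 lambda counts of 11, 18 and 11, too few to set apart from HKO. Iglc1 had 3, 6 and 8 counts in HKO and none in WT, Iglc2 had 6, 3 and 1 in HKO and 0, 1 and 0 in WT, and Iglc3 had 0, 3 and 1 in HKO and 0, 1 and 2 in WT. Iglc4 had no count in any library. Per length, Igkc stood at 1.45, 1.83 and 1.42 times the summed heavy chains in HKO and at 2.56, 2.37 and 1.34 times in WT, so the groups overlapped.

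The V segments, which sit on the same transcripts as the constant genes and so are not independent of them, were spread over many records. The table holds 391 other immunoglobulin records, 133 of them with a count, and none passed the filter. The 350 V records summed to 211, 354 and 246 counts in HKO and 25, 24 and 23 counts in WT. This was 14.4 ± 5.37 CPM in HKO, against 1.38 ± 0.0286 CPM in WT (SD, n = 3 each), a ratio of 10.4. V records with a count numbered 64, 77 and 70 in HKO and 11, 13 and 11 in WT. Of the 115 seen in any HKO library, 28 were seen in all 3. The kappa V counts stood at 0.911, 0.874 and 1.11 per Igkc count in HKO and at 1.36, 0.875 and 1.44 in WT.

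The leading V records were not the same in each library. Igkv3-4 led the kappa segments in HKO 1, with 18.7% of kappa V counts (12.2% to 26.7%), and in HKO 3, with 16.8% (11.1% to 23.9%). In HKO 2 the leader was Igkv9-120, with 11.0% (6.88% to 16.5%). Among heavy segments, Ighv6-3 led in HKO 1 (8.75%) and HKO 3 (11.6%), and Ighv1-26 in HKO 2 (14%, 9.20% to 20.2%). No heavy or kappa record held a majority of the heavy or kappa V counts in any HKO library. The 3 lambda V records had only 8, 2 and 8 counts in HKO, of which Iglv1 held 7, 2 and 4.
Igkv3-4 had 23, 9 and 24 counts in HKO 1, 2 and 3 and Ighv6-3 had 7, 5 and 11, and neither had a count in WT. Igkv9-120 had 1, 20 and 0 counts in HKO, Igkv19-93 had 1, 17 and 0, Ighv5-17 had 0, 16 and 2, and Ighv1-26 had 3, 24 and 1, again with none in WT. Those 4 records were counted mainly in HKO 2. Igkv1-110 was more even, with 8, 17 and 11 counts in HKO and 0, 2 and 4 in WT. Igkv1-117 had 10, 8 and 11 counts in HKO and 0, 0 and 1 in WT, and Ighv1-81 had 5, 8 and 6 in HKO and 1, 0 and 3 in WT. Igkv5-39 had 12, 2 and 10 in HKO and 3, 0 and 2 in WT.

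**Figure D3:**
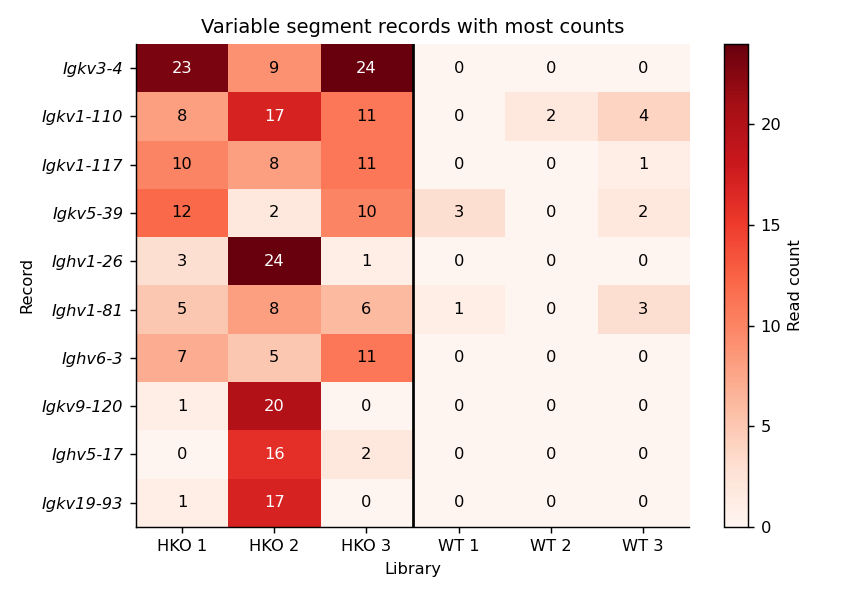
Read counts (colour and printed number) of the 10 V records with the most counts in each library, HKO columns left of the line and WT columns right of it. Igkv9-120, Igkv19-93, Ighv5-17 and Ighv1-26 were counted mainly in HKO 2, and Igkv3-4 and Ighv6-3 in all 3 HKO libraries.

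Markers of B and plasma cells were at a few counts or did not pass the test in the higher direction, while the members were higher. The B cell receptor partners Cd79a (0, 1 and 1 counts in HKO and 0, 3 and 1 in WT) and Cd79b (0, 3 and 3 in HKO and 2, 0 and 1 in WT) were at a few counts, as was the B cell surface gene Ms4a1 (0, 0 and 0 in HKO and 0, 3 and 3 in WT). Tnfrsf17, the receptor for plasma cell survival signals, was at 0 in all 6 libraries. The immunoglobulin chaperone Mzb1 had 0, 2 and 3 counts in HKO and 0, 1 and 0 in WT. Pou2af1, a coactivator of immunoglobulin promoters, had 2, 3 and 0 in HKO and 0, 0 and 0 in WT. These 6 markers together had 18 counts in HKO and 14 in WT, against 1922 and 136 counts of the immunoglobulin genes. That sum joins opposite directions at a few counts each. Mzb1, Pou2af1 and Cd79b had more counts in HKO than in WT, and Cd79a and Ms4a1 had fewer. Derl3, also a defining marker, was left out of that sum. It had far fewer counts in HKO than in WT, as given with the plasma cell genes below, so a sum with Derl3 would be lower in HKO.

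Of the 19 genes of the B cell list, 9 never exceeded 3 counts and 5 passed the filter. By edgeR none of the 5 rose and 1 fell (1 higher and 1 lower at an unadjusted p below 0.05; 0 higher and 2 lower by DESeq2), where 12.1% of all tested genes rose and 11.2% fell. Ly6d, an early B lineage surface gene, fell by 0.63 on the log2 scale (SE 0.13, adjusted p = 0.0117). The B cell signalling genes Blnk (1.47, adjusted p = 0.0900), Btk (1.12, adjusted p = 0.326), Bank1 (1.10, adjusted p = 0.146) and Cd72 (0.72, adjusted p = 0.281) did not pass, and all averaged below 1.2 CPM in both groups. The median of the 5 was 1.10, against 0.02 over all tested genes. The list's summed level was 31.2 to 38.4 CPM in HKO and 47.9 to 50.7 CPM in WT, and was mainly Ly6d. The complement receptor gene Cr2, named after its values were seen, had 0, 1 and 1 counts in HKO and 22, 6 and 9 in WT and was not tested; it was the second gene that DESeq2 called lower.

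Of the 16 plasma cell genes, 8 were tested, none rose and 4 fell by edgeR (2 higher at an unadjusted p below 0.05, 1 of them, Cd38, called by DESeq2), and the median log2 change was -0.18. The 4 that fell act in the secretory pathway that hepatocytes share. Derl3, an endoplasmic reticulum degradation factor, had 7, 11 and 21 counts in HKO and 70, 71 and 59 in WT (log2 fold change -2.51, SE 0.35, adjusted p = 0.00273). The protein folding genes Creld2 and Fkbp11 fell with -1.37 (SE 0.12, adjusted p = 0.000371) and -1.38 (SE 0.19, adjusted p = 0.00232). Xbp1, the transcription factor of secretory cells, averaged 206 CPM in HKO, against 267 CPM in WT (log2 fold change -0.38, SE 0.10, adjusted p = 0.0267), a call lost under 6 of 10 alternatives. Sdc1 (0.01), Txndc5 (0.25), Ell2 (0.37) and Cd38 (0.79) did not pass.

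The genes of B cell development and class switching summed to 17.7 to 24.9 CPM in HKO and 18.1 to 24.1 CPM in WT, so the groups overlapped, and 6 of the 11 never exceeded 3 counts. Rag1 and Rag2 (the V(D)J recombinase) and Igll1 (a surrogate light chain) were at 0 in all 6 libraries. The 4 tested genes had a median log2 change of 0.09. S1pr2, which germinal centre B cells and other cells express, fell by 0.68 on the log2 scale (SE 0.18, adjusted p = 0.0295), a call lost under 6 of 10 alternatives. None rose by edgeR or DESeq2, and 1, Bcl6, was higher at an unadjusted p below 0.05.

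Of the 14 receptors and binding partners of secreted immunoglobulin, 11 were tested, 4 rose and 1 fell, and the median log2 change was 0.72. Fcgrt, the neonatal Fc receptor that recycles IgG and albumin, had 3421, 3009 and 3477 counts in HKO and 1458, 1568 and 1359 in WT. Its mean of 172 ± 12.8 CPM in HKO, against 83.9 ± 3.66 CPM in WT (SD, n = 3 each), gave a log2 difference of 1.04 (SE 0.10, adjusted p = 0.000523). The groups did not overlap. Fcer1g, the signalling chain shared by activating Fc receptors, had 109, 67 and 86 counts in HKO and 27, 28 and 28 in WT (log2 fold change 1.51, SE 0.26, adjusted p = 0.00593). These 2 kept their calls under all 10 alternatives.
Cd5l, a macrophage protein carried by circulating IgM, had 2181, 1131 and 2403 counts in HKO and 951, 996 and 820 in WT (log2 fold change 0.88, SE 0.20, adjusted p = 0.0191). HKO 2 was the lowest HKO library for it. The IgG receptor gene Fcgr3 rose with 1.0 (SE 0.28, adjusted p = 0.0372). Leaving out HKO 1, HKO 3 or any WT library ended the call of both, with adjusted p-values of up to 0.0813 for Cd5l and 0.111 for Fcgr3. Trim21, a cytosolic antibody receptor, fell with -0.60 (SE 0.18, adjusted p = 0.0431), a call lost under all 10 alternatives (adjusted p = 0.0577 to 0.151).
Pigr, the receptor that carries polymeric IgA into bile, averaged 772 CPM in HKO, against 917 CPM in WT (log2 fold change -0.25, adjusted p = 0.413). Fcgr2b (0.72), Fcgr1 (0.72), Fcgr4 (0.68), Asgr1 (0.12) and Asgr2 (0.02) did not pass either.

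**Figure D4:**
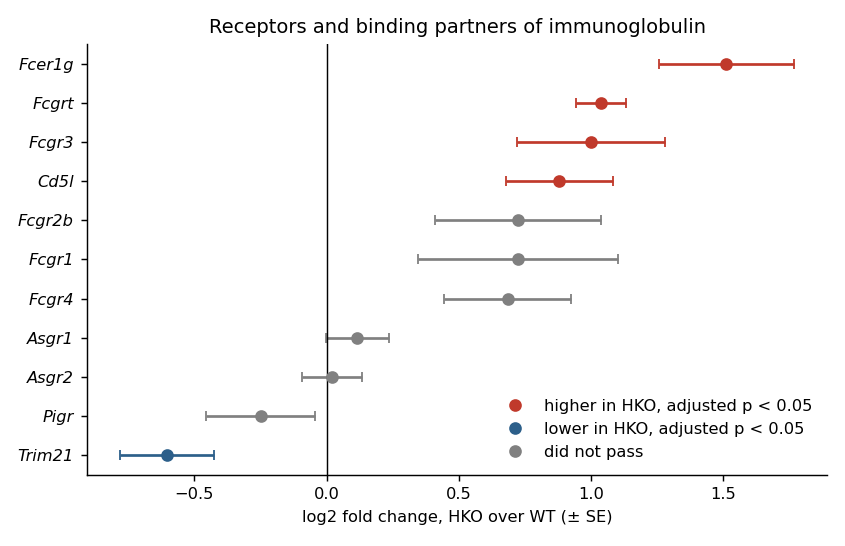
Log2 fold change, HKO over WT (horizontal axis), with SE for the 11 tested receptors and binding partners of immunoglobulin. Fcer1g, Fcgrt, Fcgr3 and Cd5l lie to the right of 0 past an adjusted p of 0.05, and Trim21 to the left.

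Of 14 survival and homing factors of B and plasma cells, 4 were tested and 1 rose, and the median log2 change was 0.13. Cxcl13, the chemokine that draws B cells into follicles, had 88, 44 and 84 counts in HKO and 15, 17 and 16 in WT (log2 fold change 2.0, SE 0.31, adjusted p = 0.00426). It was lowest in HKO 2 among the HKO libraries, where most immunoglobulin members were highest. Cxcl12 (-0.01), Ccl25 (0.26) and Tnfsf13 (-0.61), which encodes the plasma cell survival factor APRIL, did not pass.

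Markers of other cells moved with the genotype beside the immunoglobulin genes. All 12 Kupffer cell and macrophage genes rose, with a median of 1.0 (Cd163 1.29, Timd4 1.28, Marco 1.17, Csf1r 1.13, C1qb 1.09, Adgre1 1.04, Lyz2 0.96, Vsig4 0.85, C1qc 0.80, C1qa 0.77, Cd68 0.72 and Clec4f 0.61), and their sum was 240 to 356 CPM in HKO and 154 to 164 CPM in WT. The stellate and matrix sum was 155 to 597 CPM in HKO and 90.4 to 138 CPM in WT. Of 9 tested genes, with a median of 1.22, 3 rose (Ecm1 1.81, Dcn 1.22 and Reln 1.19). The endothelial sum was 159 to 479 CPM in HKO and 95.7 to 153 CPM in WT. Of its 9 tested genes, with a median of 1.16, 1 rose by edgeR (Lyve1 1.82) and 6 by DESeq2. HKO 2 was the highest library for the last 2 sums and the lowest HKO library for the macrophage sum.
Of 5 tested red cell and platelet genes, 3 rose (Hbb-bt 5.30, Hba-a1 3.80 and Hbb-bs 2.84), and the list summed to 73.9 to 78.1 CPM in HKO and 54.1 to 62.9 CPM in WT. Hbb-bs measured 2.68, 7.84 and 1.23 CPM in HKO and 0.444, 0.617 and 0.549 CPM in WT, the same order of HKO libraries as Igha. The alpha globin genes are near-identical copies, so the value of Hba-a1 is uncertain. How far the reads of Hbb-bs and Hbb-bt can be told apart was not checked. In the neutrophil list the only tested gene, Csf3r, rose with 1.78 (adjusted p = 0.0428, lost under 8 of 10 alternatives), and the sum was 1.14 to 5.58 CPM in HKO and 0.777 to 0.914 CPM in WT.
The T and NK cell list summed to 0.774 to 2.73 CPM in HKO and 0.222 to 1.89 CPM in WT, with Cd3d, Cd8a, Cd8b1 and Trbc1 at 0 throughout and no call in 1 tested gene (Cd4). The 2 tested dendritic cell genes had no call either, with sums of 105 to 128 CPM in HKO and 104 to 114 CPM in WT. By edgeR none of these 3 genes passed an unadjusted p of 0.05, and DESeq2 called none in either list. In the biliary list 3 of 4 fell (Spp1 -2.03, Sox9 -1.05 and Pkhd1 -1.03), with sums of 40.6 to 63.4 CPM in HKO and 73.4 to 183 CPM in WT. Of 9 hepatocyte genes, Ass1 (1.36), Apoa2 (0.84) and Cps1 (0.72) rose and Fgb (-1.40) and Serpina1a (-0.69) fell. Without single libraries, 9 to 12 of the macrophage genes kept a call, and Hba-a1 and Hbb-bs lost theirs without any 1 of the WT libraries. The part of any of these cell types in the immunoglobulin values was not tested.

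**Figure D5:**
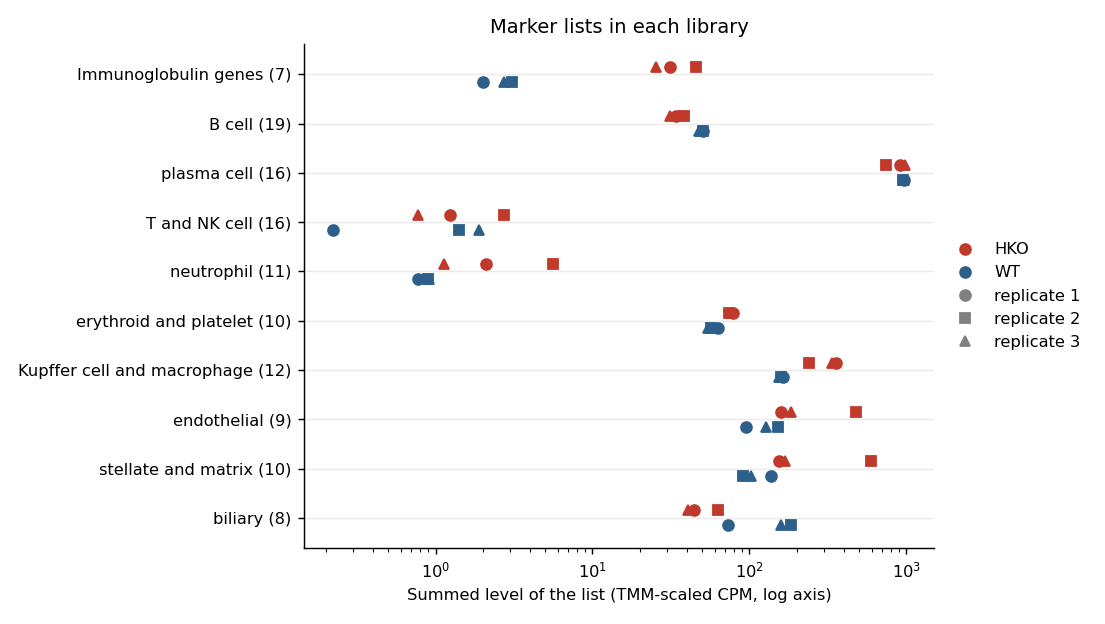
Summed level (horizontal log axis, TMM-scaled CPM) of the immunoglobulin genes and of 9 marker lists in each library, HKO above WT in each row, with the number of genes in parentheses. The immunoglobulin genes lie at 25.3 to 45.6 CPM in HKO and 2.0 to 3.09 CPM in WT. The B cell list, whose sum is mainly Ly6d, lies lower in HKO than in WT. Its 5 tested genes had a median log2 change of 1.10. Hba-a1 and Hbb-bs are a minor part of the erythroid and platelet sum.

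The tested genes whose pattern over the 6 libraries was most like that of the summed members were Cyp4a14 (root mean square difference 0.174 between centred log2(CPM + 0.5) values), Cyp4a10 (0.349), Acot3 (0.374), Gm15441 (0.388) and Lepr (0.399), where the members' own values spanned 4.21. Cyp4a14, a fatty acid hydroxylase of hepatocytes, measured 716, 901 and 713 CPM in HKO and 48.3, 86.9 and 73.0 CPM in WT. As with the members, HKO 2 was its highest library and WT 1 its lowest. This likeness is a description over libraries that share their genotype difference.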

How the data were processed

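The submitters' processing notes name HISAT2 (version 2.0.4), StringTie (version 1.3.0) and the builds mm10 and GRCm38.p4; their roles and settings are not given in the sources used here. The authors deposited raw counts and FPKM (counts per gene length and library total) per gene and library, per the file headers. No strand-marking step is described in the labels' protocols. The members and lists were chosen with earlier results of these data known.

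The counts went into edgeR 4.0.16 (R 4.3.3): filterByExpr (12556 of 34745 genes kept), TMM scaling, the unblocked quasi-likelihood F-test, and Benjamini-Hochberg adjustment over all tested genes, with a call at an adjusted p below 0.05. The fit was also run on simulated counts of genes that had already passed the filter. That run does not test the filter, and its outcome is not reported here. Log2 fold changes are HKO minus WT, and each SE is the size of that change over the root of the F statistic. Member levels and ratios are descriptions from TMM-scaled CPM. For a member at 0 in all WT libraries the ratio is a lower bound against 3 counts over the WT group. Shared windows and sequences came from GENCODE M21 transcripts. Library totals were 16659778 to 21168233, so a gene of a few counts has a wide counting error.

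The text names all members; the 10 other immunoglobulin records with the most counts and every constant gene; every called gene of the 14 gene lists and defining B and plasma cell markers; Sox9; and the 5 tested genes, immunoglobulin records apart, most like the summed members. The alternatives were library totals or DESeq2 size factors in place of TMM, no filter, DESeq2 1.42.0, a replicate block, FPKM, and leaving out each library. Some genes of the lists, a defining marker among them, are not reported here.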

Additional observations from a re-analysis of the deposited data

How the results depend on the processing

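The ratio of the summed members stayed within 10.8 and 14.7 when single libraries were left out, and was 13.0 with DESeq2 size factors, 13.0 with library totals, 12.9 from FPKM and 13.3 without Igkc. Counts of calls moved more. Over all genes, 1518 were higher and 1401 lower, and leaving out single libraries gave 722 to 1589 higher and 682 to 1546 lower. Of the other immunoglobulin records, none was tested, so none was called; 6 of 133 were higher with no filter, 4 with DESeq2 (Igkv3-4, Ighv6-3, Ighv1-26 and Igkv1-117), and 0 to 1 without single libraries. The B cell list had 2 lower with no filter and 2 lower with DESeq2, and 0 to 1 higher without single libraries. The plasma cell list had 1 higher with library totals, 1 with DESeq2 and 0 to 1 without single libraries. S1pr2 was the only call of its list, which had 0 to 1 lower without single libraries. The receptor list had 2 to 4 higher and 0 lower without single libraries, and 0 lower with library totals, no filter or DESeq2. Of 40 called list genes, 21 kept their call in all 10 alternatives, 19 lost it in some (Apoa2, C1qc, Cd5l, Cd68, Clec4f, Cps1, Csf3r, Dcn, Ecm1, Fcgr3, Hba-a1, Hbb-bs, Pkhd1, Reln, S1pr2, Serpina1a, Sox9, Trim21 and Xbp1) and 0 reversed. Besides, calls higher in the endothelial list were 1 against 6 by DESeq2 and 5 with the block, in the stellate list 3 against 0 to 3 without single libraries, and in the red cell list 3 against 5 by DESeq2 and 1 to 4 without single libraries. The causes were not tested; leaving out a library also leaves fewer samples.

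Replicate numbers are shared by the groups, and the labels give no pairing. Deviations from the group means had correlations of -0.00192, 0.00248 and 0.0717 between same-numbered libraries. Between libraries with unlike numbers they were -0.0764 to 0.0556. With 3 libraries a group, these values cannot settle whether libraries were paired. With the replicate block, 1245 genes were higher and 1115 lower, S1pr2's list had 0 lower and the receptor list 0 lower, and the calls of Sox9, Fcgr3, Trim21, Xbp1, Cd68, Clec4f, Cps1, Csf3r, Dcn and Reln were lost as well. The 7 members rest on 136 counts in WT, which limits the precision of every ratio to WT.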
